A study of Homo sapiens with 6 samples.

Results

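The genes of MHC class I antigen presentation are 9 of the 54308 genes with log2 signals in this series, selected by symbol as HLA-B, HLA-C, HLA-E, HLA-F, B2M, TAP1, TAP2, TAPBP and NLRC5. All 9 had a value in each of the 6 libraries and all 9 were among the 19306 genes tested. RNA came from 143B, a human osteosarcoma cell line, transfected with a vector plasmid (VC, genotype control, 3 libraries) or with a CNTNAP4 KO plasmid (KO, genotype CNTNAP4 KO, 3 libraries), for 48 h according to the labels. The methods describe a CRISPR/Cas9 plasmid that also carries a red fluorescent protein, sorting of single cells into colonies, and RNA from clonal cells. The colony behind each replicate is not given in the sources used here, so an effect of CNTNAP4 deletion and a difference between clones cannot be told apart, and p-values measure the spread between these RNA samples. CNTNAP4 itself had a value in 1 of the 6 libraries, VC replicate 3 (log2 signal -7.18), and the signals therefore do not check the deletion.

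MHC class I molecules carry short peptides from proteins made inside the cell to the cell surface, where CD8 T cells and natural killer cells read them. Each molecule is a polymorphic or conserved heavy chain, encoded by an HLA gene, bound to the invariant light chain beta-2 microglobulin. Peptides cut by the proteasome are pumped into the endoplasmic reticulum by the TAP transporter and loaded onto new heavy chains by a complex of tapasin, calreticulin and the disulfide isomerase PDIA3. NLRC5 is the transactivator that acts on class I promoters, and interferons raise most of these genes together. Low class I expression is a known route by which tumor cells escape T cells.

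The 4 heavy chain genes among the 9 were higher in KO, and the light chain, transporter, tapasin and transactivator genes did not pass the test. HLA-B, a classical heavy chain, had the largest change (1.93-fold), and HLA-C, HLA-E and HLA-F rose 1.58-fold, 1.61-fold and 1.61-fold. Of the 9 genes, 4 were DEGs (differentially expressed genes, adjusted p under 0.05), all higher in KO, where 32.9% of all tested genes were DEGs, 13.1% higher and 19.8% lower. That balance depended on the scaling, with 2526 higher and 3828 lower DEGs on the deposited signals. The numbers were 3005 and 3233 with median-centred libraries, and 3092 and 3301 after a further quantile normalization. The share of DEGs also depended on the signal level. Among the 9653 genes with the highest mean signals, fitted alone, 5702 were DEGs, as were 3 of the 7 members in that fit. The median log2 fold change of the 9 genes was 0.12 against -0.13 for all tested genes. All fold changes are KO against VC, from limma on the deposited log2 signals. The signals had been made equal in distribution between libraries, so a change is a change relative to the other genes of the library.

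**Figure D1:**
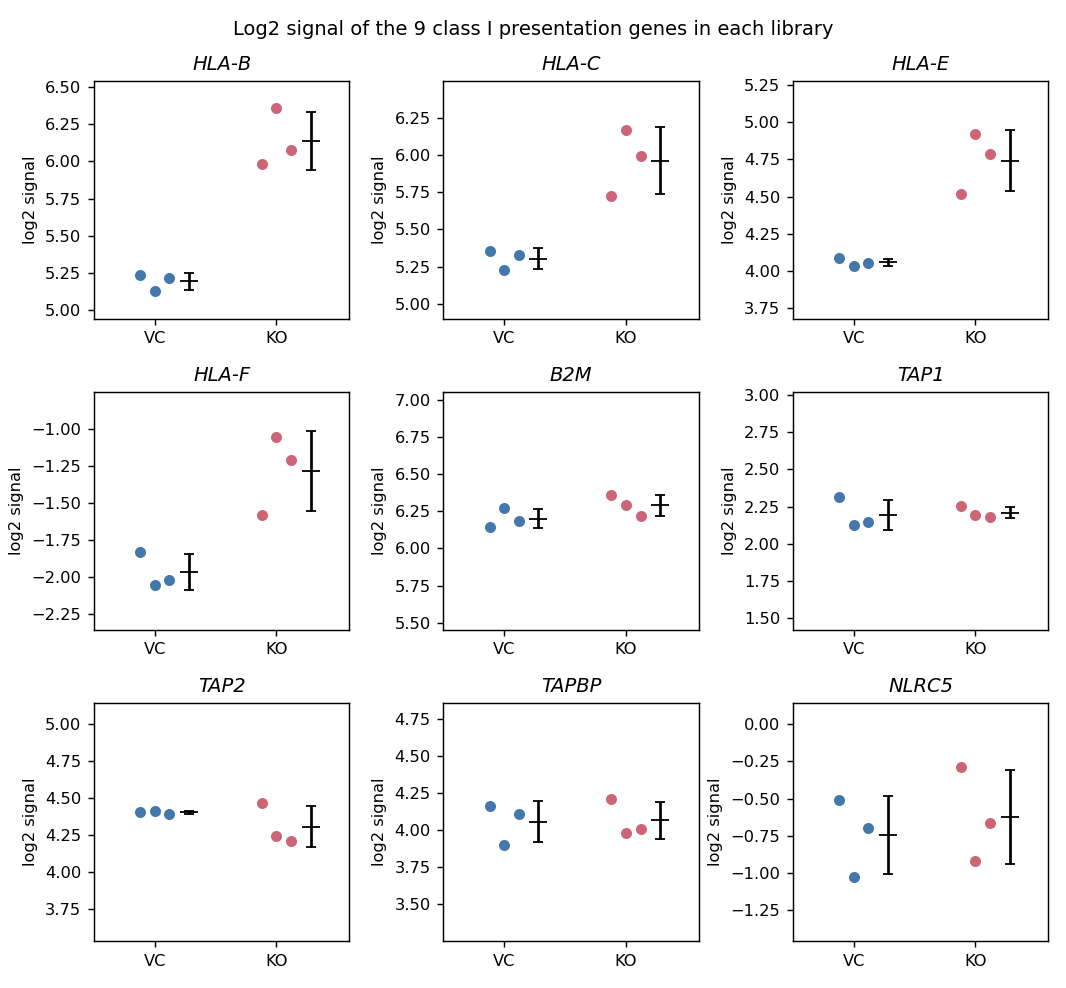
Log2 signal of each of the 9 class I presentation genes (vertical axis, each panel spanning the same range of 1.6 log2 units) in the 3 VC and 3 KO libraries (points), with the mean and SD of each group as bar and whiskers. The KO points of HLA-B, HLA-C, HLA-E and HLA-F lie above all VC points, and the groups overlap in the other 5 genes.

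HLA-B (chr6:31353875-31357179) encodes a classical heavy chain that presents peptides to CD8 T cells. Its log2 signals were 5.24, 5.12 and 5.22 in VC replicates 1 to 3 and 5.98, 6.36 and 6.08 in KO replicates 1 to 3. The lowest KO library stood 0.75 above the highest VC library, a gap wider than the range within either group. The means were 5.19 ± 0.059 in VC and 6.14 ± 0.19 in KO (SD, n = 3 each), a log2 fold change of 0.95 (standard error 0.12, 95% interval 0.65 to 1.24, adjusted p = 0.00985). It was a DEG in all 6 fits that each left out a library, with an adjusted p of at most 0.0452.

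HLA-C (chr6:31268749-31272092), the other classical heavy chain gene described here, is also a ligand for receptors of natural killer cells. Its log2 signals were 5.36, 5.23 and 5.33 in VC and 5.73, 6.17 and 5.996 in KO. The groups did not overlap, and KO replicate 1 was the lowest of the KO libraries, as it was in each heavy chain gene. The log2 fold change was 0.66 (standard error 0.13, 95% interval 0.33 to 0.99, adjusted p = 0.0214).

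HLA-E (chr6:30489509-30494194) encodes a conserved heavy chain that displays leader peptides of other class I molecules to natural killer cells. Its log2 signals were 4.08, 4.03 and 4.05 in VC and 4.52, 4.92 and 4.79 in KO. The 3 VC libraries were nearly equal (SD 0.025) and the KO libraries were spread more widely (SD 0.21). The log2 fold change was 0.69 (standard error 0.12, 95% interval 0.38 to 0.99, adjusted p = 0.0164).

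HLA-F (chr6:29723434-29738532), a nonclassical heavy chain gene found largely inside resting cells, had the lowest log2 signals of the 4, on a scale whose correction for gene length is not given. Its log2 signals were -1.83, -2.05 and -2.02 in VC and -1.58, -1.05 and -1.21 in KO. The groups did not overlap, and the gap between the nearest libraries was 0.25. The log2 fold change was 0.68 (standard error 0.16, 95% interval 0.28 to 1.09, adjusted p = 0.0302). When the linear signal was raised by 1 before the logarithm, the value was 0.17 (adjusted p = 0.0324), and adding 1 compresses low signals.

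The direction of the 4 heavy chain genes was the same in every fit, while the number of DEGs among the 9 genes depended on the libraries. Groups that do not overlap, with KO above VC, were seen in these 4 genes and in 22.6% of all genes with 6 values, and groups apart in either direction in 59.3%. HLA-C and HLA-E were each DEGs in 2 of the 6 fits that left out a library and HLA-F in 1. Without VC replicate 1, VC replicate 2, VC replicate 3 or KO replicate 3, HLA-B was the 1 DEG among the 9, where the number of DEGs among all genes was 1403, 2450, 1223 and 2018 in place of 6354. In the 6 fits the highest adjusted p was 0.0708 for HLA-C, 0.0626 for HLA-E and 0.0923 for HLA-F. Their log2 fold changes ranged from 0.56 to 0.78, from 0.60 to 0.80 and from 0.57 to 0.83.

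**Figure D2:**
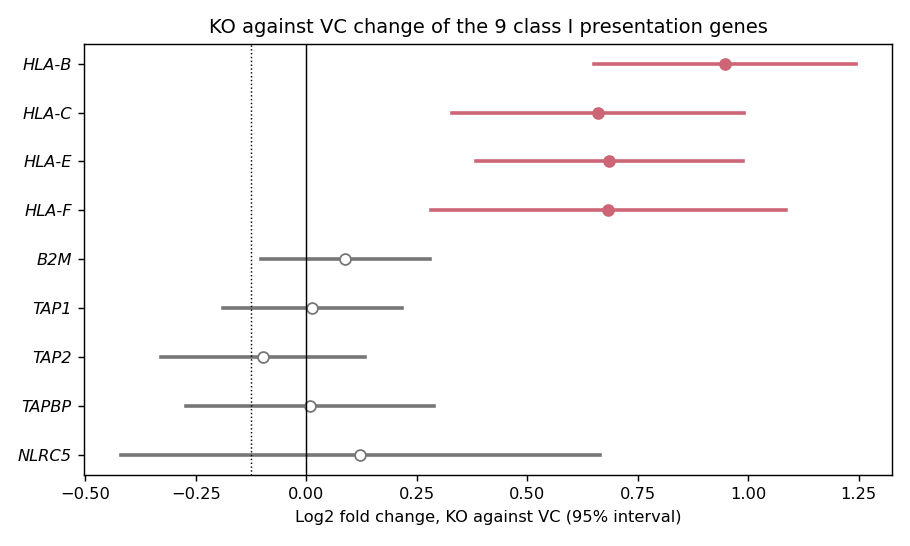
Log2 fold change of each of the 9 genes, KO against VC (point), with its 95% interval from limma (line). Filled points are DEGs, the solid vertical line marks 0 and the dotted line the median of all tested genes (-0.13). The 4 heavy chain genes have intervals above 0, and the intervals of the other 5 genes include 0.

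The heavy chain genes resemble each other, so stretches that are identical between genes were counted in the annotated transcripts. Of the stretches of 75 bases in the longest coding transcript, 0% of HLA-B and HLA-F, 1.96% of HLA-C and 2.02% of HLA-E also occurred in a transcript of another gene. With stretches of 50 bases the shares were 2.54%, 1.702%, 6.71% and 5.13%. These shares hold for the reference alleles, which may differ from those of 143B. Stretches that differ by a few bases were not counted, so the share of reads that fit several genes may be higher. HLA-H, a class I pseudogene chosen here after its values were seen, also changed upward (log2 fold change 0.74, adjusted p = 0.0322, a DEG in 2 of the 6 fits with a library left out). The exons of HLA-F overlap those of the antisense gene HLA-F-AS1 over 535 bases, 12.3% of the exon bases of HLA-F. HLA-F-AS1 went the other way, from -1.74, -1.32 and -1.71 in VC to -2.30, -2.74 and -2.17 in KO (log2 fold change -0.81, adjusted p = 0.0338). The library kit marks the strand, and the sources used here do not give whether counting used it.

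B2M (chr15:44711517-44718145) encodes the light chain that all class I heavy chains need to reach the surface. Its log2 signals were 6.15, 6.27 and 6.19 in VC and 6.36, 6.29 and 6.22 in KO. The groups overlapped, and the whole range of the 6 libraries was narrower than the HLA-B gap. The log2 fold change was 0.09 (standard error 0.076, 95% interval -0.10 to 0.28, adjusted p = 0.399), so the interval includes folds from 0.93 to 1.21 and none of the 4 heavy chain estimates.

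TAP1 (chr6:32845209-32853704) and TAP2 (chr6:32821831-32838739) encode the subunits of the peptide transporter. The log2 signals of TAP1 were 2.31, 2.13 and 2.14 in VC and 2.25, 2.20 and 2.18 in KO. All KO values of TAP1 lay between its VC values, with a log2 fold change of 0.013 (95% interval -0.19 to 0.22, adjusted p = 0.909). The log2 signals of TAP2 were 4.41, 4.41 and 4.39 in VC and 4.47, 4.24 and 4.21 in KO. KO replicates 2 and 3 of TAP2 were below the VC values and KO replicate 1 was above them, with a log2 fold change of -0.10 (95% interval -0.33 to 0.13, adjusted p = 0.439). Of the 75-base stretches of TAP2, 35.5% also occurred in another gene model, and 32.3% of its exon bases overlap a coding model on the same strand that is not listed in the table. The exons of TAP1 overlap the antisense gene PSMB8-AS1 over 456 bases, and PSMB8-AS1 did not pass the test (log2 fold change -0.29, adjusted p = 0.0988).

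TAPBP (chr6:33299694-33314078) encodes tapasin, which holds the empty heavy chain beside the transporter. Its log2 signals were 4.16, 3.90 and 4.11 in VC and 4.21, 3.98 and 4.004 in KO, and the groups overlapped throughout. The log2 fold change was 0.0087 (95% interval -0.27 to 0.29, adjusted p = 0.957). NLRC5 (chr16:56989557-57083520), the class I transactivator, had log2 signals of -0.51, -1.03 and -0.70 in VC and -0.29, -0.92 and -0.66 in KO. Its replicates varied more than those of any other of the 9 genes in VC (SD 0.26), and the log2 fold change was 0.12 (95% interval -0.42 to 0.66, adjusted p = 0.683). A 2-fold rise of NLRC5 lies outside this interval, while a rise as large as that of HLA-C lies just inside it.

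Whether the heavy chains and the other members moved unequally was compared as the difference of 2 log2 signals in the same library. Such a difference is unchanged when a whole library is shifted, but not when quantile normalization shifts genes by their signal level. B2M exceeded HLA-B by 0.91, 1.15 and 0.97 in VC and by 0.38, -0.065 and 0.14 in KO. Every KO library lay below every VC library. The sign of such a difference is no comparison of abundance, since the correction for gene length is not given. The mean difference fell by 0.86, from 1.01 ± 0.12 to 0.15 ± 0.22 (SD, n = 3, two-sided p = 0.1 by exact permutation, which is the lowest p possible with 3 libraries a group). The difference between B2M and HLA-C fell by 0.57, from 0.90 ± 0.13 to 0.33 ± 0.27, and that between NLRC5 and HLA-B fell by 0.82, both with groups that did not overlap (exact permutation p = 0.1 each).

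Within the heavy chains, the differences to HLA-B were also lower in KO. The difference of HLA-C minus HLA-B was 0.12, 0.10 and 0.11 in VC, and the difference was -0.26, -0.19 and -0.081 in KO. The VC values were nearly equal and the KO values all lay below them. The differences of HLA-E and of HLA-F to HLA-B fell by 0.26 each, with groups that did not overlap (exact permutation p = 0.1 each). The HLA-F value depended on the scale: it was -0.76 with 1 added to the linear signal, and -0.11 with overlapping groups after a further quantile normalization (exact permutation p = 0.6), an alternative chosen after the data were seen. The ratio of TAP2 to TAP1 (change -0.11, exact permutation p = 0.2) and that of TAPBP to TAP1 (change -0.0047, exact permutation p = 0.9) overlapped between the groups. In all, 6 of the 8 ratios (75%) did not overlap, and 5 of the 6 share HLA-B and are not separate observations. Of single genes with 6 values, 59.3% had groups apart, which is an unlike measure, and no share was computed over other pairs of genes. The adjusted p of these 6 ratios, over the 8, was 0.133 by the exact permutation test, a design in which no ratio can pass 0.05.

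**Figure D3:**
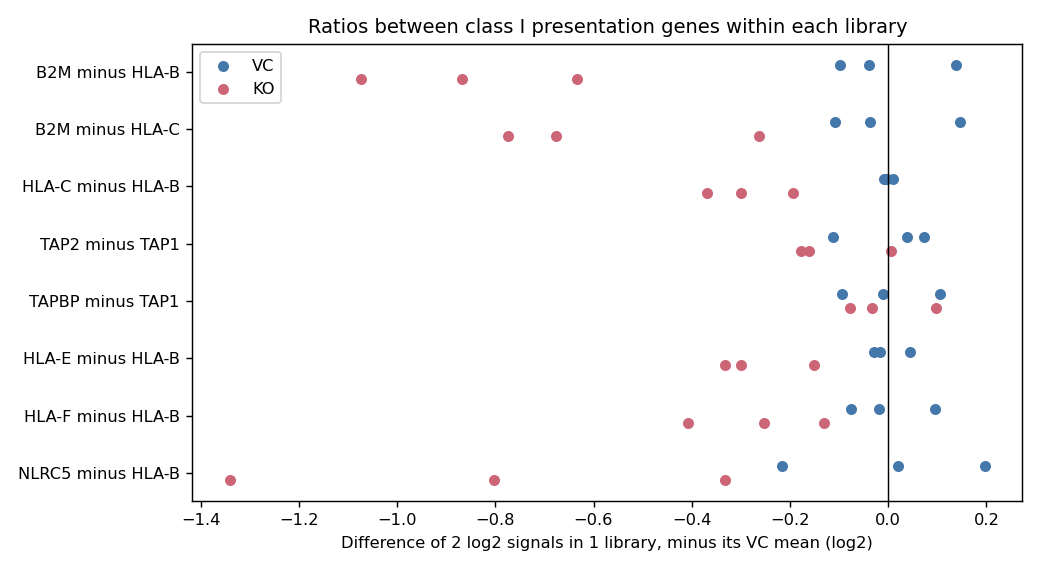
Difference of the log2 signals of 2 genes in the same library, minus the VC mean of that difference (horizontal axis), for 8 pairs of genes and the 3 VC and 3 KO libraries. Every KO point lies left of every VC point for the 6 pairs that include HLA-B or HLA-C, and the groups overlap for the 2 pairs among TAP1, TAP2 and TAPBP.

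The promoters of the heavy chain genes that moved together, and that of B2M beside them, are shown because class I promoters share a module read by RFX5, CREB and NF-Y proteins, on which NLRC5 sits. Of the 9 genes, 6 had 1 entry in the RefSeq promoter table, TAP1 had several, and HLA-E and NLRC5 are named only. The 250 bases before each start are given 5′ to 3′ on the strand of the gene (GRCh38.p14). Capitals mark CCAAT (the letters of the Y box) and TGACG (the core of the X2 box) on either strand. They are marked wherever they occur, so a marked match need not be the box itself.
HLA-B, chr6:31357180-31357429, minus strand: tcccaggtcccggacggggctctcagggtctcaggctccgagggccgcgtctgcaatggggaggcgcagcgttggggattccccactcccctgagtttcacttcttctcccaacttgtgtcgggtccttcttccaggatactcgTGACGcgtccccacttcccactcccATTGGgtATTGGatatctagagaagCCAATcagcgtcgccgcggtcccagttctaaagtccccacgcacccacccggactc
HLA-C, chr6:31272093-31272342, minus strand: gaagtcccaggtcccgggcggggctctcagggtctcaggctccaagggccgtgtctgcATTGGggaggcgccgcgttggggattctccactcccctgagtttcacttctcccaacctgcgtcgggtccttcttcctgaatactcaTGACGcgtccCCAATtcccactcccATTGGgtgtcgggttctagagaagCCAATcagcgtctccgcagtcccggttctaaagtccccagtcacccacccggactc
HLA-F, chr6:29723184-29723433, plus strand: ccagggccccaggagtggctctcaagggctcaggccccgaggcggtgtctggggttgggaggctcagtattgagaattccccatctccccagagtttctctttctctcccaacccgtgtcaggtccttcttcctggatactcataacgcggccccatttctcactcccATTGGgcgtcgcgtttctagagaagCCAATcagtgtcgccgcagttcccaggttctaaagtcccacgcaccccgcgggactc
B2M, chr15:44711267-44711516, plus strand: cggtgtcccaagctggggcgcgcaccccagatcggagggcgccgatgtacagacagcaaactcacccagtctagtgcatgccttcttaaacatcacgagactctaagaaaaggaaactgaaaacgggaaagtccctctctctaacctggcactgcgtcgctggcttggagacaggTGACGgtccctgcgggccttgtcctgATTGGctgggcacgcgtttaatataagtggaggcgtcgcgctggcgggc

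Over these 250 bases HLA-B matched HLA-C at 89.0% of aligned positions and HLA-F at 80.4%, against 46.6% for B2M, where unrelated sequence also aligns in part. The 3 heavy chain promoters share a CCAAT beginning at position -56 or -57 from the start and an ATTGG beginning at position -80 to -82. Of the promoters printed, those of HLA-B, HLA-C and B2M hold TGACG and that of HLA-F does not. CCAAT occurs in 34.6% and TGACG in 24.6% of the 35116 promoters in the table, each searched on either strand in the window that adds 50 bases after the start to the 250 before it, so neither is rare. The kappa B motif of the class I enhancer, GGGGA and TCCC parted by any base, is held by 0.424% of promoters and was found in HLA-B, beginning at position -177, and in none of the other 5 promoters read. The motif of the interferon-stimulated response element, a pair of GAAA parted by any 2 bases, is held by 3.57% of promoters and was found in HLA-F, B2M, TAP2 and TAPBP and not in the windows of HLA-B and HLA-C. The gamma-activated site, TTC and GAA parted by any 3 bases, is held by 7.66% of promoters and was found in none of the 6. Only these exact letters were searched, so variant forms of the sites are missed. A promoter without a match, such as those of HLA-B and HLA-C for the interferon motif, may still hold such an element. These are matches of letters in the reference sequence and were not measured as bound sites.

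Genes beside the heavy chain genes were compared next. On chromosome 6 the genes next to HLA-B and HLA-C were POU5F1, a pluripotency factor (log2 fold change -0.047, adjusted p = 0.773), and MICA, a class I-like stress ligand (-0.22, adjusted p = 0.0457). Beside HLA-E, RPP21, a subunit of ribonuclease P, had 0.56 (adjusted p = 0.0196) and GNL1, a GTP-binding protein, -0.018 (adjusted p = 0.871). Of the 31 other coding genes tested between HLA-F and HLA-B, 7 were DEGs that were higher and 1 was lower (22.6% higher), against 18.7% higher among the 780 coding genes tested on chromosome 6. Their median log2 fold change was 0.083, and the other 23 did not pass the test.

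The other genes of the pathway were described in 5 lists by role, with 46 genes, all tested, of which 12 were higher, 6 lower and 28 did not pass. The share of DEGs was 39.1% against 32.9% of all genes. That of higher DEGs was 26.1% against 13.1%, and that of lower DEGs 13% against 19.8%. The shares of all genes include genes with low signals. In a fit limited to the 9653 genes with the highest mean signals, 5702 were DEGs, 2263 of them higher and 3439 lower. In that fit 25 related genes were DEGs. How many of the 46 were in that fit was not counted, so the 25 give no share to set beside that of all genes. Whether the related genes differ from other genes of like signal was not tested. The number of DEGs among the 46 was 3, 6 and 1 without VC replicate 1, 2 and 3, and 22, 10 and 8 without KO replicate 1, 2 and 3. No list was tested as a set.

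Among the genes that load, fold and trim, 3 of 6 were higher and none lower (median log2 fold change 0.46). CALR, the lectin chaperone calreticulin of the loading complex, rose from 7.57, 7.46 and 7.53 in VC to 8.34, 9.10 and 9.02 in KO (1.30 on the log2 scale, standard error 0.22, adjusted p = 0.0154). PDIA3, its disulfide isomerase partner, rose from 6.61, 6.66 and 6.61 to 7.08, 7.67 and 7.61 (0.83, adjusted p = 0.0236). ERAP1, the aminopeptidase that trims peptides to their final length, rose from 2.31, 2.37 and 2.33 to 2.80, 3.06 and 2.94 (0.60, adjusted p = 0.0129). In each of these genes KO replicate 1 was the lowest KO library and no groups overlapped. CALR was a DEG in 2, PDIA3 in 1 and ERAP1 in 4 of the 6 fits that left out a library, with a highest adjusted p of 0.0578, 0.0766 and 0.0554. ERAP2, the second trimming enzyme (0.11, adjusted p = 0.551), and TAPBPL, a tapasin-related editor (0.049, adjusted p = 0.788), did not pass the test. CALR and PDIA3 also serve the folding of many glycoproteins besides class I.

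Of the 9 peptide supply genes, none was higher and 3 were lower. The immunoproteasome subunits, which interferon induces, did not pass: the log2 fold change was 0.087 for PSMB8 (adjusted p = 0.393), 0.096 for PSMB9 (adjusted p = 0.613) and 0.24 for PSMB10 (adjusted p = 0.0969). PSMB10 was a DEG under 4 alternatives, among them median-centred libraries (0.33, adjusted p = 0.0284). The genes that fell were PSME3 (-0.51, adjusted p = 0.0394) and PSME2 (-0.35, adjusted p = 0.0229), activator subunits that cap the proteasome, and PSMB5 (-0.27, adjusted p = 0.0392), the constitutive subunit that PSMB8 replaces. Each was a DEG in at most 2 of the 6 fits that left out a library, and with median-centred libraries PSMB5 did not pass (adjusted p = 0.0666).

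Among 14 transcription factors of class I genes, 4 were higher and 1 lower. RFX5, the DNA-binding subunit of the factor on the X box, rose from 4.39, 4.35 and 4.39 in VC to 4.93, 5.11 and 4.89 in KO (0.60, standard error 0.083, adjusted p = 0.0115), and was a DEG in 5 of 6 fits with a library left out. NFYB, a subunit of the CCAAT-binding factor, fell by 0.70 (adjusted p = 0.012). NFKB1 (0.40, adjusted p = 0.0303) and RELA (0.30, adjusted p = 0.0335), subunits of NF-kB, were higher, and were DEGs in 2 and 1 of those fits. IRF1, an activator induced by interferon, had 0.28 (adjusted p = 0.0854), and adjusted p was under 0.05 in 4 alternatives.

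For the interferon receptors and kinases, 2 of 7 genes were higher and 1 was lower. IFNGR1 and IFNGR2, the chains of the interferon gamma receptor, had log2 fold changes of 0.48 each (adjusted p = 0.0201 and 0.0175). IFNAR2, a chain of the type I receptor, had -0.25 (adjusted p = 0.0456, and 0.0846 after centring libraries on their medians). They were DEGs in 2, 3 and 1 of the 6 fits that left out a library.

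Of 10 other class I-like molecules, 3 were higher and 1 was lower. ULBP1, a stress ligand for the natural killer receptor NKG2D, had the largest change of all the genes in these lists, from 1.10, 1.16 and 1.20 in VC to 2.35, 2.97 and 2.33 in KO (1.40, standard error 0.19, adjusted p = 0.0114), and remained a DEG with each library left out. ULBP2, a ligand of the same receptor, had 0.58 (adjusted p = 0.0123), and HFE, an iron regulator that pairs with beta-2 microglobulin, had 0.45 (adjusted p = 0.0114), each a DEG in 4 of those 6 fits. Other ligands of NKG2D, named after their values were seen, had lower signals in each KO library than in any VC library: MICA, the lower DEG of this list (-0.22, adjusted p = 0.0457), and MICB (-0.50, adjusted p = 0.0656) and ULBP3 (-0.33, adjusted p = 0.0787), which did not pass the test.

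**Figure D4:**
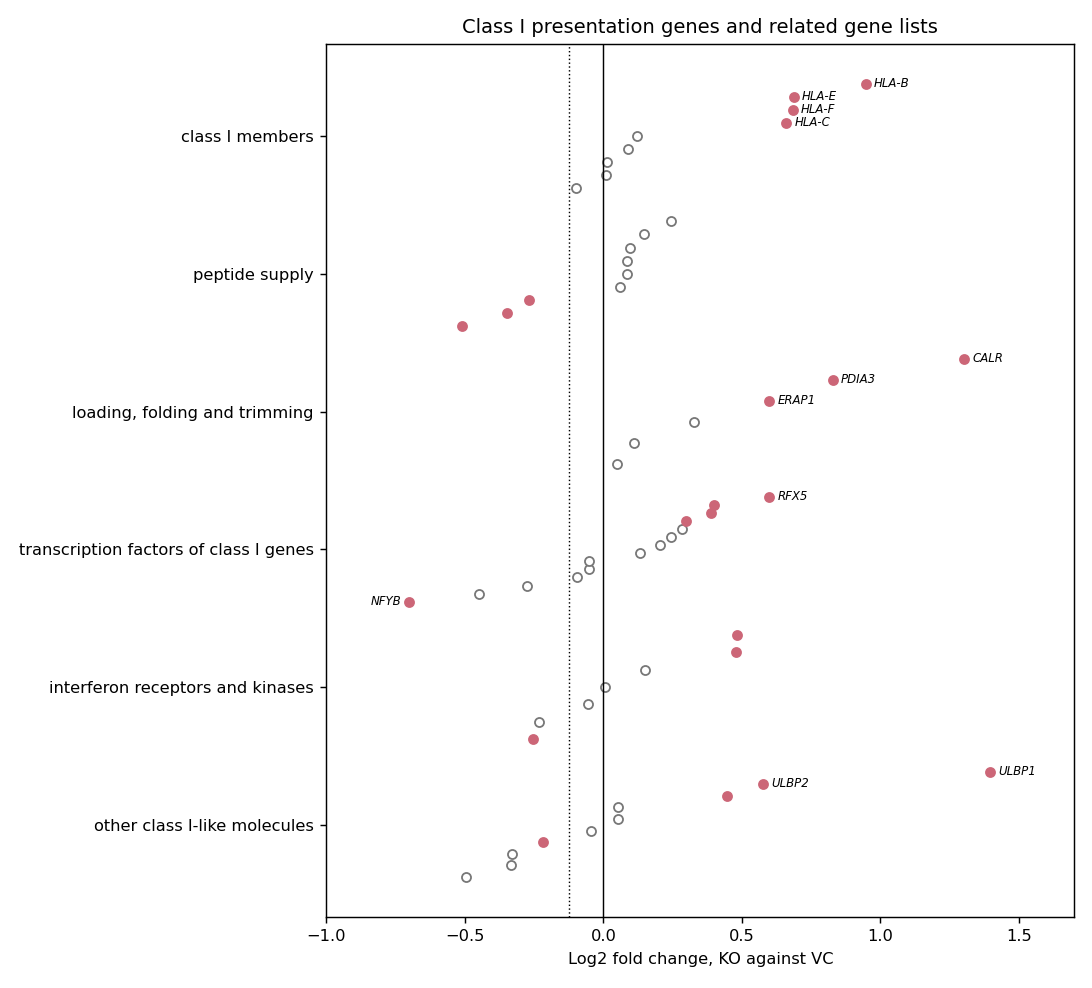
Log2 fold change, KO against VC, of the 9 class I presentation genes and of the 46 genes in 5 related lists (1 point per gene). Filled points are DEGs, open points did not pass, the solid line marks 0 and the dotted line the median of all tested genes (-0.13). The largest changes are those of ULBP1 (1.40), CALR (1.30) and HLA-B (0.95).

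The genes nearest in pattern were sought as the smallest root mean square distance between deviations from the gene means over the 6 libraries. Among the members, HLA-C and HLA-E were nearest to each other (distance 0.033), HLA-F was nearest to HLA-C (0.057), and B2M and TAP2 were nearest to TAP1. HLA-B was nearest to HLA-E, at a larger distance (0.14). Outside the members, and among 8849 genes in the upper part of the signals, MYADM, PIK3CD and DNASE2 were nearest to HLA-B (0.020, 0.022 and 0.040). KDM5B, COL6A3 and SMIM3 were nearest to HLA-E (0.031, 0.032 and 0.036) and ZNF428, SLC50A1 and PPM1M to HLA-F (0.027, 0.040 and 0.048).

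Markers of other cells were checked because blood and endothelial cells express class I genes. Values per library numbered 20333 to 21041 genes. Linear signals were summed over each list, with empty cells adding nothing, and the log2 of the sum is given. Of 6 blood markers, 4 had an empty cell in at least 1 library. Their sum was -2.24 to -1.96 in VC and -4.21 to -3.82 in KO. In KO, CD3E and CD14 each had a value in 1 library and HBB in 0, so these sums cover different genes. The 3 endothelial markers summed to -5.50 to -4.41 in VC and -4.84 to -4.11 in KO, and the 7 class II markers to -1.24 to -0.44 and -0.91 to -0.34. The 7 osteosarcoma and osteoblast markers summed to 10.4 to 10.6 in VC and 10.7 to 11.0 in KO, mostly from VIM. The other markers of this list had much lower signals, with SP7 empty in 2 libraries and COL1A2 at or below -4.59 in all. The sum is therefore no measure of the osteoblast markers RUNX2, SP7 and ALPL. The 4 epithelial markers summed to 9.17 to 9.32 and 9.11 to 9.25, mostly from KRT18 and KRT8. Of the markers, the osteosarcoma list had 3 higher and 1 lower DEG, the epithelial list had KRT8 higher (0.59, adjusted p = 0.0135) and EPCAM lower (-0.67, adjusted p = 0.0157), and of the 10 blood, endothelial and class II markers tested with limma 0 were DEGs and 0 had an unadjusted p under 0.05. The part of these shifts in the heavy chain changes was not tested. In bulk RNA, more cells with a transcript and more RNA per cell cannot be told apart.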

How the data were processed

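Bulk RNA sequencing was performed on 3 VC and 3 CNTNAP4 KO libraries of 143B cells, grouped by their sample labels. The authors deposited log2 signals for 54308 genes by symbol. Their processing notes name CASAVA, STAR, Partek and GRCh38.p13, and the methods add the CLC Genomics and Partek Genomics programs, without versions. The annotation, the linear unit and the rule for reads that fit several genes are not given in the sources used here. All libraries have almost the same distribution of values, as quantile normalization leaves it, so the depth of each library is unknown and no counting interval could be computed.

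The signals were used without further scaling in R 4.3.3 with limma 3.58.1 (linear model, empirical Bayes moderation, no trend). Genes needed 2 or more values per group (19306 genes), and the Benjamini-Hochberg adjustment of two-sided p-values ran over all of these. The members and lists were chosen with earlier results of these data known. Ratios between members were compared by exact permutation tests in SciPy 1.17.1. Named genes were the 9 members, 12 related genes fixed by role (1 of them is not reported here), up to 3 DEGs of each related list with the largest absolute log2 fold change, and the genes nearest in pattern. Positions and promoters came from RefSeq on GRCh38.p14, whose chromosome coordinates are those of the earlier patch. Transcripts came from GENCODE release 29, and promoters were aligned with Biopython 1.88. In a test on simulated signals for the 19306 genes, 200 genes above the median signal were given a 2-fold change, and 82.5% of them were called in the right direction.

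Alternatives were other gene filters, 2 other scalings, 1 added to the linear signal, other variance settings, library weights, a replicate block and each library left out. Same-numbered VC and KO libraries did not deviate together (r across genes -0.0074 to 0.023), so the replicate numbers were not taken as pairs.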

Additional observations from a re-analysis of the deposited data

How the results depend on the processing

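The number of DEGs among all genes was 6354. It was 13936 with library weights, 1533 with the replicate block and 1223 to 8669 with single libraries left out. Of the 9 members 4 were DEGs, 1 with the replicate block (HLA-B) and 1 to 4 with single libraries left out, and for the related genes the number was 18, 32 with library weights, 1 with the replicate block and 1 to 22 with single libraries left out. The weights rested almost wholly on KO replicate 3. HLA-F was not a DEG without variance moderation (adjusted p = 0.0585), and TAP2 became a DEG with library weights (-0.19, adjusted p = 0.00447). Log2 fold changes near 0 changed sign with library weights: TAP1 to -0.026, TAPBP to -0.099, PSMB9 to -0.17, ERAP2 to -0.035 and TAPBPL to -0.12. With single libraries left out, TAP1 ranged from -0.019 to 0.072, TAPBP from -0.071 to 0.062, NLRC5 from -0.046 to 0.27, ERAP2 from -0.011 to 0.18, TAPBPL from -0.045 to 0.14, and the change of the TAPBP to TAP1 ratio from -0.056 to 0.048. The sign of the 4 heavy chain genes held in each alternative fit. The ratios were recomputed with 1 added, after further quantile normalization (chosen after the data were seen) and with single libraries left out, and the sign of the other 7 held in these. The change of HLA-F minus HLA-B was -0.76 with 1 added and -0.11 after further quantile normalization, where its groups overlapped. The median of all genes was -0.042 with median-centred libraries and -0.023 with 1 added to the linear signal. The replicate numbers were not treated as pairs. Depth is unknown.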
